A study of Mus musculus with 4 samples.

Results

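Genes of the extracellular matrix and of the meninges were read in 4 control arrays of mouse dentate gyrus, the granule cell field of the hippocampus. They were chosen by name: probe sets whose array annotation gives exactly 1 gene symbol, that symbol being a collagen, laminin, nidogen, matrix metalloproteinase (Mmp), tissue inhibitor of metalloproteinases (Timp) or procollagen enhancer (Pcolce) gene, or Ptgds, Dcn, Lum, Bgn, Fmod, Ogn, Fn1 or Sparc. Col9a3 was left out. This took 94 probe sets of 66 genes from 12422 probe sets that are not array controls, which name 8251 genes singly. All 4 samples were total RNA from young male C57BL/6J mice that were handled by the experimenter and received nothing else. Their RNA was taken 1, 2, 4 and 6 h after the last shock given to other mice, which were not analysed here, and each hour had 1 array. The number of mice behind a sample is not given in the labels, so an hour has no replicate error, and a mean ± SD below runs over the 4 arrays (n = 4).

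The matrix of the brain differs from that of other organs. Fibrillar collagens are scarce in neural tissue and are made mainly by fibroblasts of the meninges and large vessels, while type IV collagen, laminin and nidogen form the basement membranes around vessels and under the pia. Small leucine-rich proteoglycans such as decorin bind collagen fibrils, metalloproteinases cut matrix proteins, and Timp proteins inhibit them. In bulk tissue, fewer cells of a type and less RNA per cell cannot be told apart.

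Values are intensities on a linear scale, which compare the same probe set between arrays but do not rank genes. Intensities under 16.4, the 10th percentile, were set to it before log2 was taken, and dim probe sets, those whose mean log2 value was below the 40th percentile of the table, were not tested. That kept 7453 of 12422. Granule cell markers were present, with 10 of 11 probe sets over that filter, Calb1 (calbindin) reading 2033, 2052, 2323 and 2375 at 1, 2, 4 and 6 h. The 1 h array differed in a measure of RNA quality: the 3' to 5' ratio of the Gapdh control transcript was 4.88 there and 1.13 to 1.33 in the other 3. The gap was smaller for beta-actin, with a ratio of 2.51 at 1 h and 1.83 to 2.20 in the others. In the trend over the hours, 1 probe set of 7453 passed limma's test at an adjusted p of 0.05, that of Ttr, a choroid plexus gene, and it is no member.

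Of the 94 matrix and meningeal probe sets, 35 passed the filter on dim values, and they stand for 31 genes. Of the 94, 66 lay over the floor of 16.4 in every array, 23 fell under it in some arrays and 5 in all 4. The filter therefore left 35 genes with no tested probe set. Of genes known from meningeal cells, Ptgds, Dcn, Lum and Bgn had tested probe sets, and Col3a1, Fmod and Ogn had none.

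Ptgds, the enzyme that makes prostaglandin D and is secreted into cerebrospinal fluid, was highest at 4 h on all 3 of its probe sets. It is made by arachnoid and other meningeal cells and by oligodendrocytes. Probe set 102105_f_at read 5676, 12282, 14999 and 8655 at 1, 2, 4 and 6 h. Probe set 92546_r_at read 8315, 8320.4, 13501 and 7608, and probe set 92545_f_at read 6927, 8584, 11250.1 and 7336. The 4 h value was 1.78-fold, 1.67-fold and 1.48-fold the mean of the other arrays on the log2 scale. The probe sets differ at 1 h, where the first was 2.06-fold lower than the mean of the others and the other two were 1.14-fold and 1.29-fold lower. All 3 carry suffixes that mark probes shared with related sequences or chosen under relaxed rules, and they report 1 gene, so they are not independent. None had a slope on the hour that passed, the lowest adjusted p in limma being 0.926.

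Decorin and lumican, proteoglycans that regulate collagen fibrils, lie next to each other on the chromosome and had the same order of arrays at both ends. Dcn read 645, 470, 867 and 795, and Lum read 172, 104, 182 and 114. Both were lowest at 2 h and highest at 4 h. Biglycan (Bgn) was measured by a pair of tested probe sets that did not move alike. Its probe set 96049_at read 532, 608, 480 and 518, a spread of 534 ± 53.6 (SD, n = 4), and 162347_f_at read 527, 309, 386 and 193. At 6 h 162347_f_at was 2.06-fold lower than the mean of the others. Fmod (fibromodulin) read 41.5, 170, 106 and 23.9 on its brighter probe set and Ogn (osteoglycin) 74.5, 106, 104 and 78.8, both too dim to test.

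Pcolce, which speeds the removal of the carboxyl propeptide from fibrillar procollagens, had the widest difference of a single array below the others at 1 h. It read 81.2, 288, 441 and 282 at 1, 2, 4 and 6 h, which is 4.06-fold lower at 1 h and 2.35-fold higher at 4 h than the mean of the other 3 arrays. The 4 h difference of 1.23 on the log2 scale was 0.63 without the 1 h array. Its slope was 0.30 ± 0.16 (SE) log2 units per hour over 4 arrays, with an adjusted p of 0.874 in limma, and -0.01 without the 1 h array.

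**Figure D1:**
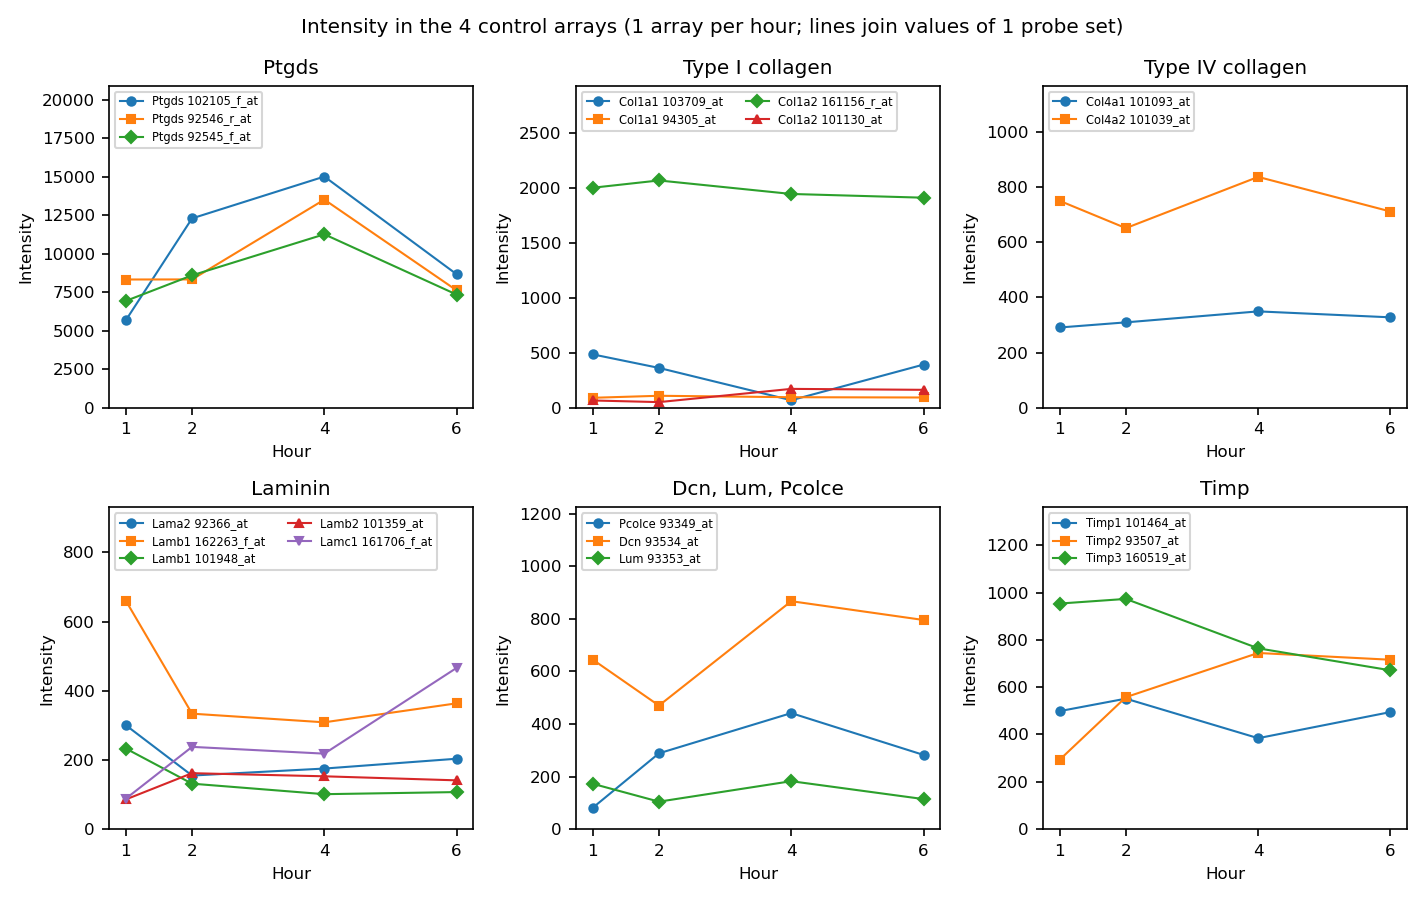
Intensity (linear axis from 0) against the hour for probe sets of 6 gene groups, 1 point per control array, with lines joining the values of 1 probe set. The 3 Ptgds probe sets peak at 4 h (14999, 13501 and 11250.1), while the panel of type I collagen, which also shows probe sets too dim to test, has Col1a1 103709_at at 66.7 at 4 h.

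Among fibrillar collagens, which form the banded fibrils of connective tissue, Col1a1 varied most between arrays and Col1a2 least. These genes encode the chains of type I collagen. Col1a1 read 484, 361, 66.7 and 391 on probe set 103709_at, so the 4 h array lay far below the others, 6.13-fold under their mean. The second probe set of Col1a1, 94305_at, read 89.1, 108, 94.4 and 91.8 and showed no such gap, but it did not reach the filter. Col1a2 read 2001, 2067, 1944 and 1910.1 on 161156_r_at, within a 1.08-fold range, the narrowest of the tested members. Its other probe set, 101130_at, read 64.7, 49.8, 170 and 162. Probe sets of the same gene thus disagreed both in brightness and in the order of the arrays for each type I chain, and which of them follows the transcript cannot be told from intensities.

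Col5a1, a chain that limits fibril width, read 538, 493, 460 and 472, a 1.17-fold range. Its second probe set was dim, at 73.7, 31.9, 22.7 and 10.2. The remaining fibrillar collagens, Col2a1, Col3a1, Col5a2, Col11a1 and Col11a2, had mean intensities from 8.7 to 81.8 and were not tested. Col3a1, which is laid down with type I collagen in vessel walls, read 66.4, 52.9, 129 and 78.3 on its brightest probe set. Its other probe sets were under the floor in 3 of the 4 arrays.

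The basement membrane collagens Col4a1 and Col4a2, which build the type IV network of vessel walls and pia, were steady. Col4a1 read 291, 310, 350 and 328 at 1, 2, 4 and 6 h, or 319.5 ± 25.04 (SD, n = 4). Col4a2 read 751, 652, 838 and 712, or 738 ± 78.0 (SD, n = 4). Both were highest at 4 h, by 1.13-fold and 1.19-fold over the mean of the others, and their slopes of 0.04 ± 0.06 and 0.01 ± 0.05 (SE) log2 units per hour did not pass in limma (adjusted p of 0.937 and 0.98). The minor chains Col4a3, Col4a4 and Col4a5, known from kidney basement membrane, had mean intensities of 12.8, 18.1 and 42.8, Col4a5 reading 63.2, 17.6, 70.4 and 19.8.

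Col4a1 and Col4a2 lie next to each other and are transcribed in opposite directions from overlapping 5′ ends, and their promoter windows (RefSeq, GRCm38.p6, 250 bases before to 50 after a transcript start) are shown because of that arrangement. The annotated starts are 21 bases apart, and the windows share 78 bases on opposite strands, all of which lie within the 50 bases after one start or the other, so no stretch is upstream of both. Each is written 5′ to 3′ on its gene's strand, with capitals marking every match to CCAAT or GGGCGG on either strand. No match to TATAAA was found on either strand.
Col4a1 (chr8:11312777-11313076, minus strand): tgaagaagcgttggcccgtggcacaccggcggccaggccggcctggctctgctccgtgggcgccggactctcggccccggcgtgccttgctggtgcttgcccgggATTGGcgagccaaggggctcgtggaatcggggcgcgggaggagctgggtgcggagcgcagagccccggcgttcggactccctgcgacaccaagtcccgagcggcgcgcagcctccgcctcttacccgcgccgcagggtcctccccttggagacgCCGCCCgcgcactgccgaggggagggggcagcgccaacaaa
Col4a2 (chr8:11312555-11312854, plus strand): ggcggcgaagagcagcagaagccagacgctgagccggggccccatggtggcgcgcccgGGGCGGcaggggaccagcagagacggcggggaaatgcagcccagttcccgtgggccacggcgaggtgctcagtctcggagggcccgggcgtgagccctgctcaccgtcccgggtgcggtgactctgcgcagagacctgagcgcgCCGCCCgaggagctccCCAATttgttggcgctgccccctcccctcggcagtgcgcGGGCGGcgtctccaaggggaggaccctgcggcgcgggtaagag
Their GC content was 74.0% and 73.7%. The Ptgds window was 57.7% GC, held none of these 3 motifs, and is shown because all 3 Ptgds probe sets were highest at 4 h.
Ptgds (chr2:25469700-25469999, minus strand): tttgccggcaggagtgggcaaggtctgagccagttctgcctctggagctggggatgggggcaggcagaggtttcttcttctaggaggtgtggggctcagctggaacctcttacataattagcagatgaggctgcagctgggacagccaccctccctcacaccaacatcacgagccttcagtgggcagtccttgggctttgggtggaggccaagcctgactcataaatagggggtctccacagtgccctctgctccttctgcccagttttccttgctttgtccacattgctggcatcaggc
Promoters of 46 of the 66 genes matched, as 52 windows. GGGCGG, the GC box, was in 25 of the 52 (48.1%) and in 35.7% of all 32851 promoter windows of the same length. CCAAT was in 18 (34.6%, against 37.4% of all) and TATAAA in 12 (23.1%, against 13.6% of all). These are matches of letters and not measured binding sites.

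The other collagens fell into steady and variable genes. Col6a1, of the beaded filaments of collagen VI, read 470, 404, 371 and 360.1. Its chromosomal neighbour Col6a2 read 196, 183, 96.6 and 262, 2.19-fold lower at 4 h than the mean of the others. Col9a1, a collagen on the surface of cartilage fibrils, read 250.9, 296, 95.0 and 323, 3.03-fold lower at 4 h, whereas Col9a2 of the same trimer read 509, 416, 572 and 378 and was highest at 4 h. Col19a1, next to Col9a1 on the chromosome and known from hippocampal interneurons, read 218, 183, 219 and 188. The low 4 h values of Col1a1, Col6a2 and Col9a1 were therefore not shared by all collagens, since 6 of the 13 tested collagen probe sets were highest in that array.

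Col18a1, a basement membrane collagen that yields endostatin, read 403, 277, 203 and 298 on 99638_at. Its other probe sets had means between 17.4 and 73.9. Col7a1, of the anchoring fibrils of skin, read 53.8, 154, 182 and 108, 2.69-fold lower at 1 h than the mean of the others. Col26a1 read 156, 142, 169 and 116. Several collagens were too dim to test. Col15a1, which like Col18a1 lies in basement membranes, was steady just under the filter at 95.9, 104, 85.8 and 91.9, and Col6a3, the third chain of collagen VI, read 45.0, 67.8, 56.1 and 55.9. The fibril-associated collagens Col12a1, Col14a1 and Col22a1 had means of 9.18 to 114. The network-forming collagens Col8a1 and Col10a1 read 22.9, 90.3, 71.6 and 18.2, and 83.7, 59.1, 57.1 and 63.3. Of the transmembrane collagens, Col13a1 read 43.7, 62.0, 80.4 and 125 on its brighter probe set and Col17a1 read 63.4, 39.2, 37.1 and 23.3.

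Laminins, the cross-shaped trimers of basement membranes, included a gene that differed at 1 h on both its probe sets. Lamb1, the beta chain of most vessel laminins, read 660.0, 334, 309 and 364 on 162263_f_at and 233, 131, 101 and 107 on 101948_at. The 1 h array was thus 1.97-fold and 2.07-fold over the mean of the others, and it was the highest on each probe set. Of all 7453 tested probe sets, 35.4% were highest at 1 h. Lama2, the alpha chain of muscle and glial basement membranes, was also highest at 1 h, reading 300.2, 155, 175 and 203. Lamb2 and Lamc1 were lowest there instead. Lamb2 read 85.8, 162, 153 and 141. Lamc1, the gamma chain common to most laminins, read 88.1, 238, 218 and 466 on 161706_f_at, and 14.1, 53.6, 103 and 43.2 on a dimmer probe set.

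Lamc1 had the largest positive slope of the 35 tested members, 0.39 ± 0.11 (SE) log2 units per hour over 4 arrays, and it did not pass (adjusted p of 0.874 in limma). Its 6 h array was 2.81-fold over the mean of the others and its 1 h array 3.28-fold under it. Without the 1 h array the slope was 0.24. Lama1, Lama3, Lama4, Lama5 and Lamb3 were not tested, with means of 38.9 to 109. The probe sets of Lama4, a vessel laminin, disagreed, one being under the floor at 1 h and reading 24.1, 173 and 104 at 2, 4 and 6 h, the other reading 48.3, 43.5, 17.5 and 46.1. The nidogens Nid1 and Nid2, which link laminin to type IV collagen, were not tested. Nid1 read 26.5, 81.5, 24.5 and 14.5, and Nid2, under the floor in 3 of 4 arrays, read 8.5, 9.9, 24.4 and 2.6.

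Fibronectin (Fn1) and Sparc were among the steadiest genes. Fn1, a cell-binding glycoprotein, read 513, 505, 567 and 592, and Sparc, a collagen-binding protein abundant in brain vessels, read 788, 713, 784 and 870.4. Their ranges were 1.17-fold and 1.22-fold, less than the differences described above for Pcolce, Lamc1 and Col1a1.

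Of the 13 metalloproteinase genes, 4 were bright enough to test: the membrane-bound Mmp14, Mmp16 and Mmp17, and Mmp11. Mmp14, which activates Mmp2 at the cell surface, read 475, 610.0, 638 and 489. Mmp17, tethered by a lipid anchor, read 678, 1318, 811 and 710.0, and its 2 h value was 1.80-fold over the mean of the others. Mmp16, another membrane-type enzyme, read 51.2, 171, 128 and 138, 2.83-fold lower at 1 h, and Mmp11 (stromelysin-3) read 188, 102, 168 and 115. The others were too dim to test, the membrane-bound Mmp24 among them. Mmp9, studied for its part in hippocampal plasticity, read 29.7, 28.7, 28.5 and 11.8 on its brighter probe set. Mmp2 read 143, 58.1, 11.4 and 29.8 on its brighter probe set, with the 4 h value under the floor. Its other probe set, 95663_at, read 37.9, 27.9, 34.5 and 29.5 and showed no such fall. Mmp3, Mmp7, Mmp8, Mmp10, Mmp12, Mmp13 and Mmp24 had means of 11.1 to 49.1. At these intensities the arrays do not show whether a change occurred.

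The inhibitors Timp2 and Timp3 ran in opposite directions over the hours. Timp2, which also takes part in Mmp2 activation by Mmp14, read 293, 558, 745 and 716, and Timp3, which is bound to the matrix, read 954, 973, 764 and 671. Their slopes were 0.23 ± 0.08 and -0.11 ± 0.04 (SE) log2 units per hour over 4 arrays, and both had an adjusted p of 0.874 in limma. Timp2 was 2.28-fold lower at 1 h than the mean of the others, and its slope was 0.09 without that array. Timp1, an inducible inhibitor, read 499, 552, 384 and 495. The other probe sets of Timp1 and Timp2 were dim, with means of 13.8 to 33.8.

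**Figure D2:**
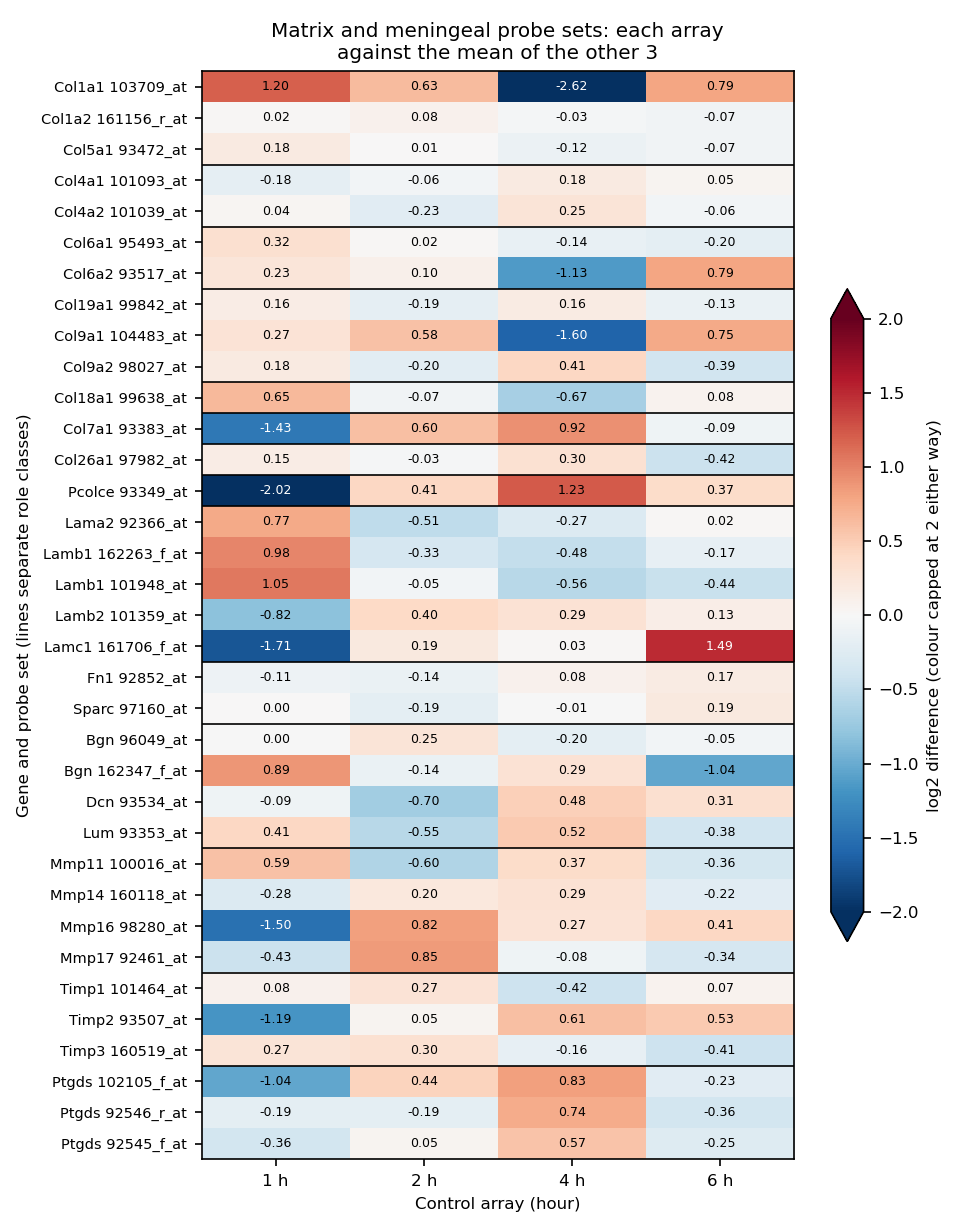
Log2 intensity of each array minus the mean of the other 3, for the 35 tested probe sets, in rows by role class and columns by hour, with red above and blue below. The darkest cells are Col1a1 at 4 h (-2.62) and Pcolce (-2.02) and Lamc1 (-1.71) at 1 h.

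Across the set, 0 of 35 tested members passed the trend test upward and 0 downward (adjusted p in limma of at least 0.874), where 0.0134% and 0.0% of all 7453 probe sets did. At an unadjusted p under 0.05 in limma, 2 members had positive slopes (Timp2 and Lamc1) and 2 negative ones (Timp3 and Bgn 162347_f_at), beside 2.04% and 2.36% of all (4.4% in either direction). The negative count was 1 without the 2 h array and 1 without the 4 h array. Slopes were positive in 15 of 35 members (42.9%) and in 46.5% of all probe sets, with medians of -0.02 and -0.01 log2 units per hour. The test has 2 residual degrees of freedom, so a slope that did not pass is not shown to be 0.

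At least 2-fold differences between 1 array and the mean of the other 3 were counted without a test. They occurred in 11 of 35 members, where 11.5% of all tested probe sets had one. At 1 h, 2 members were higher (Col1a1 and Lamb1 101948_at, with 1.8% of all) and 6 lower (Pcolce, Lamc1, Mmp16, Col7a1, Timp2 and Ptgds 102105_f_at, with 5.29% of all). Both counts belong to the array whose Gapdh ratio was 4.88, and the part of RNA quality in them was not tested. At 2 h, 0 members were higher and 0 lower, against 1.81% and 1.58% of all. At 4 h, 1 was higher (Pcolce, with 1.42% of all) and 3 lower (Col1a1, Col9a1 and Col6a2, with 1.4% of all). At 6 h, 1 was higher (Lamc1, with 0.912% of all) and 1 lower (Bgn 162347_f_at, with 1.85% of all).

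Which arrays were compared moved several of these small counts, and the share of all probe sets was not counted for these comparisons. Without the 1 h array the higher count was 1 at 2 h, 0 at 4 h and 2 at 6 h, and the lower count at 6 h was 0. Without the 2 h array the higher count was 3 at 4 h and 3 at 6 h. Without the 4 h array the higher count was 2 at 2 h and 1 at 1 h, and the member higher at 1 h was then Bgn 162347_f_at (1.11 on the log2 scale), since Col1a1 and Lamb1 101948_at differed by 0.365 and 0.974. Without the 6 h array it was 3 at 1 h and 2 at 2 h. Of the 3 members lower at 4 h, Col1a1 and Col9a1 stayed past 2-fold whichever other array was left out, whereas Col6a2 differed by -0.974 without the 6 h array, a count of 2.

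**Figure D3:**
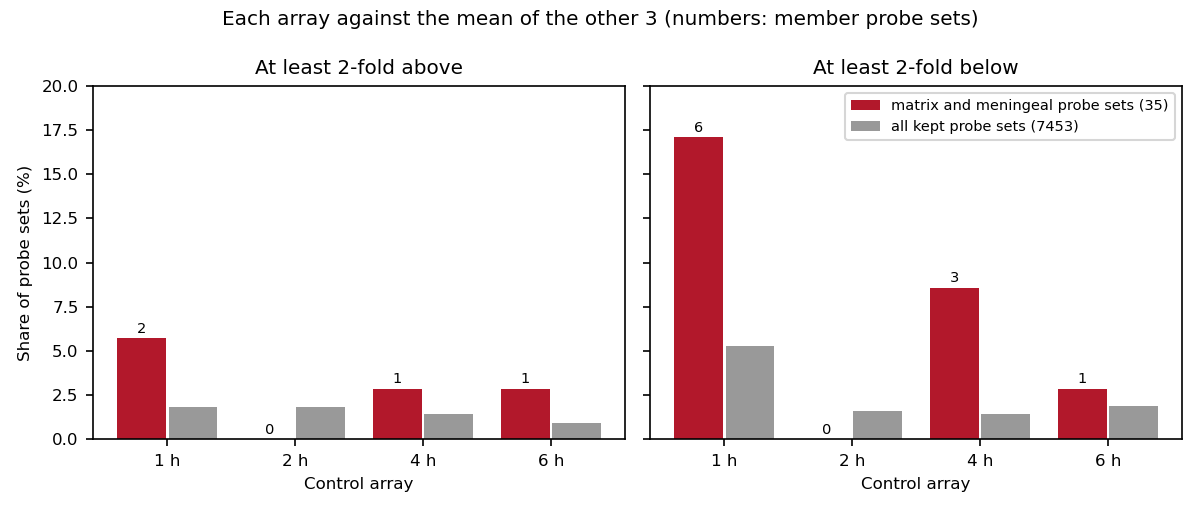
Share of probe sets (%, from 0) at least 2-fold above (left) or below (right) the mean of the other 3 arrays, for the 35 matrix and meningeal probe sets (red, with their number) and all 7453 (grey). The tallest red bars are the 6 lower at 1 h (17.1%, against 5.29% of all) and the 3 lower at 4 h (8.57%, against 1.4%).

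The spread between arrays was wider in these genes than in the table as a whole. The median SD of log2 values over the 4 arrays was 0.41 in the 35 members and 0.24 in all 7453 probe sets, or 0.27 and 0.18 without the 1 h array. Dim probe sets spread more, so the same was read by brightness. At a mean intensity under 256 it was 0.55 in 13 members and 0.40 in 2272 probe sets, and at 512 or more 0.26 in 13 members and 0.18 in 3360 probe sets. Between these bounds it was 0.27 in 9 members and 0.25 in 1821 probe sets. Within the set, 13 of the 35 stayed within a 1.5-fold range over the 4 arrays, among them Col1a2, Col5a1, Fn1, Col19a1, Col4a1, Sparc and Col4a2. The share of all 7453 probe sets within that range was not counted, so 13 of 35 does not mark the set as steady. Pcolce, Col1a1 and Lamc1 had an SD of over 50% of their mean.

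The 4 h array was the highest for 14 of the 35 members and for 20.6% of all tested probe sets. It was the highest on all 3 Ptgds probe sets and for Dcn, Lum, Pcolce, Col4a1, Col4a2, Col7a1, Col9a2, Col19a1, Col26a1, Mmp14 and Timp2. It was also the lowest for 9 (22.3% of all), both Lamb1 probe sets among them. The count was 16 without the 1 h array, where 33.2% of all were highest at 4 h. The pattern was noticed in these values and has no test.

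Meningeal fibroblast markers outside the set were set beside it, since Ptgds, Dcn and Lum are known from the same cells. Of 24 tested probe sets, 12 were highest at 4 h and 0 at 6 h. The 24 stand for 18 genes, with Fbln1, Cxcl12, Gjb6 and Pdgfra on several tested probe sets each, so they are not all independent. The summed intensity of all 39 probe sets was 9268, 11644, 12730.0 and 10820.0 at 1, 2, 4 and 6 h. Igf2 98623_g_at was the brightest of them in every array. Igfbp6, a binding protein of insulin-like growth factors, read 166, 206, 572 and 364, and Igf2, a growth factor of the meninges, 1501, 2876, 3282 and 3269. Pdgfra, a receptor of fibroblasts that oligodendrocyte precursors also carry, read 1042, 1250.0, 889 and 1006. Vim, a filament protein of fibroblasts and glia, read 187, 107, 132 and 66.2 and was highest at 1 h. The part of meningeal tissue in the Ptgds and Dcn values was not tested.

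Markers of other cells that could carry these transcripts were read in the same way, and their part was not tested either. Oligodendrocyte markers, which share Ptgds, were highest at 2 h in 12 of 16 tested probe sets and at 4 h in 1. Of all tested probe sets, 25.4% were highest at 2 h. The 16 stand for 11 genes, with Mobp and Mbp on several probe sets each, so they are not all independent. Their sums were 25166, 33223, 25228 and 26016. Choroid plexus and ependymal markers summed to 1684, 2247, 3429 and 5105, of which Ttr alone gave 225, 444, 1258 and 3009. Of their 7 tested probe sets, 2 were highest at 4 h and 3 at 6 h, where 18.5% of all were highest at 6 h. Endothelial markers were highest at 4 h in 2 of 15 and summed to 22422, 23677, 22335 and 22764. Most of that sum was Ly6e 101487_f_at, which read 15795, 15117, 13877 and 14390. Of the 15 endothelial slopes, which stand for 13 genes, 2 were positive and 13 negative, with a median of -0.101 log2 units per hour. Over all probe sets, 46.5% were positive. Negative slopes also outnumbered positive ones in the meningeal (16 and 8), astrocyte (12 and 7) and mural (5 and 3) lists. The reverse held in the oligodendrocyte (7 and 9), choroid plexus (1 and 6), microglial (5 and 6) and granule cell (3 and 7) lists. Mural cell markers, of pericytes and smooth muscle, were highest at 4 h in 4 of 8, with sums of 2500.0, 2628, 3066 and 2087. Mylk, a smooth muscle kinase, read 842, 744, 620.3 and 564, and Des (desmin) 144, 106, 195 and 39.7. Astrocyte markers were highest at 4 h in 3 of 19 and microglial markers in 1 of 11, with sums of 134754, 124768, 136741 and 125769, and 9875, 10628, 10975 and 10060.0.

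**Figure D4:**
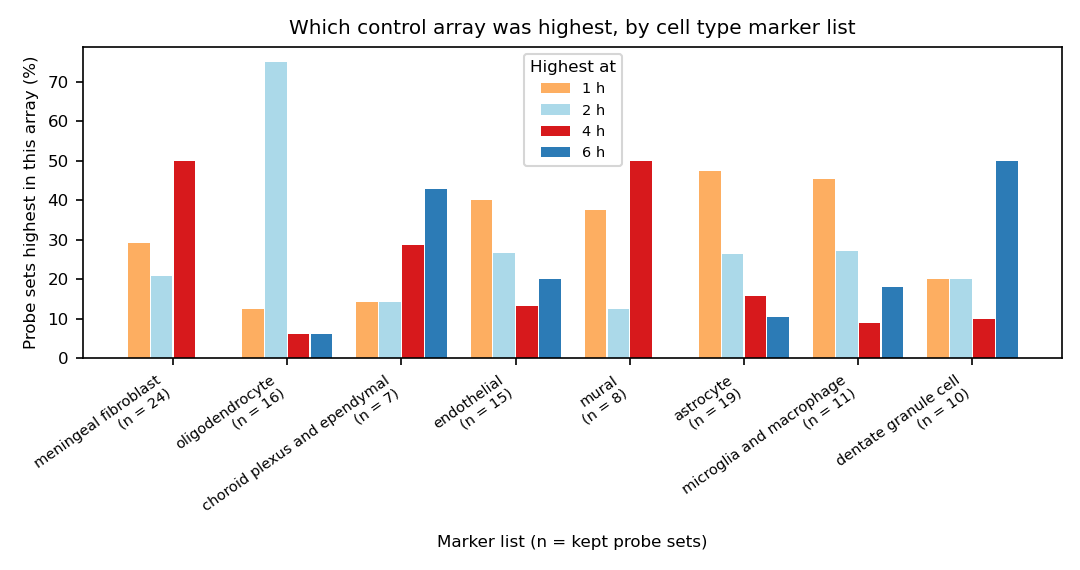
Share of each marker list's tested probe sets (%, from 0) that were highest in the 1, 2, 4 or 6 h array (bars left to right within a list). Meningeal and mural lists have their tallest bar at 4 h (12 of 24 and 4 of 8), oligodendrocyte markers at 2 h (12 of 16). Over all 7453 probe sets the shares were 35.4%, 25.4%, 20.6% and 18.5% at 1, 2, 4 and 6 h.

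Genes that process, accompany or bind these proteins were read from wider lists, and none of their probe sets passed the trend test in either direction (adjusted p in limma). Collagen-modifying enzymes and chaperones had 10 positive and 9 negative slopes, with a median of 0.003 log2 units per hour. P4hb, a subunit of the enzyme that hydroxylates proline in collagen, read 1097, 1562, 1889 and 1283 on its brighter probe set. The other, 93108_at, was also highest at 4 h. Sec23a, which helps export procollagen, read 2502, 2124, 2174 and 2436 on 104709_at. On 93711_at it was lowest at 1 h instead, at 109, 425, 335 and 409. Plod3, a lysyl hydroxylase, read 305, 152, 141 and 153 on 95009_at, and 161253_i_at was also highest at 1 h. Its brightest probe set, 160742_at, was highest at 2 h, at 338, 450, 312 and 260.0. Probe sets of Sec23a and of Plod3 thus disagreed. Proteoglycans and other matrix proteins had 18 positive and 13 negative slopes. Sparcl1, a relative of Sparc made by astrocytes, read 10313, 8749, 8967 and 8914, and Vcan (versican), a large chondroitin sulfate proteoglycan, 340, 94.8, 182 and 90.4.

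Matrix receptors had 10 slopes in each direction. Of their 20 tested probe sets, which stand for 13 genes, 10 were highest at 4 h, against 20.6% of all probe sets. That share was the same as in the meningeal and mural lists. The collagen enzyme and matrix protein lists had 5 of 19 and 9 of 31 highest at 4 h, and the other proteases and inhibitors 2 of 19. Cd47, a receptor of thrombospondin, read 4696, 3704, 3533 and 3853, and Ddr1, a collagen-binding kinase, 369, 556, 632 and 592. Other matrix proteases and inhibitors had 7 positive and 12 negative slopes. At an unadjusted p under 0.05 in limma, 1 of the 19 was positive (Bsg, an inducer of metalloproteinases), beside 2.04% of all. Another 1 was negative (Cst3 161522_i_at, of cystatin C, an inhibitor of cathepsins), beside 2.36% of all. Bsg read 1728, 4628.5, 4780 and 5053, and Cst3 161522_i_at 2935, 1001, 1069 and 926. In both, the 1 h array, with its Gapdh ratio of 4.88, lay apart from the others, and the part of RNA quality was not tested. The brighter Cst3 99586_at had a slope of -0.046 log2 units per hour and an unadjusted p of 0.266 in limma. The enzyme, matrix protein and receptor lists had 0 slopes under 0.05. Median slopes were 0.016 log2 units per hour in the matrix protein list, 0.002 in the receptor list and -0.013 in the protease list. These were close to that of all probe sets.

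Agreement between probe sets of a gene set a limit on single values. The set has 22 genes with several probe sets, which form 37 pairs. In 11 of the 37 the same array was highest in both, and in 7 the same array was lowest. Most of these pairs hold a probe set too dim to test. For the 5 pairs in which both were tested, those of Ptgds, Lamb1 and Bgn, the highest array matched in 4 and the lowest in 2.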

How the data were processed

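Total RNA of 4 handled control dentate gyrus samples had been measured on single-channel arrays. The values deposited by the authors are linear intensities, each probe set having a value in each array; the unit is intensity as the authors deposited it. No label or header names the software, so it is taken as not given in these sources. The 2%-trimmed mean over all 12488 rows was 500.3 in each array, so values were used as deposited. The 66 control rows were left out. Gene symbols were read from the platform's annotation and updated by gene identifier through a RefSeq table of GRCm38.p6.

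Intensities were floored at 16.4 and log2 was taken. Probe sets with a mean log2 of at least 6.66 (an intensity of 101.4) were kept. The trend is a linear slope on the hour, fitted over 7453 probe sets with limma 3.58.1 in R 4.3.3 (eBayes with a trend on mean intensity, two-sided, Benjamini-Hochberg at 0.05). It was tested on simulated data with independent normal errors. Those data held no difference of a whole array, such as that at 1 h, so they do not show how the test performs on these arrays. Differences of 1 array from the mean of the other 3 have no test. The p-values rest on the scatter of these 4 samples around a straight line, which eBayes moderates with that of all kept probe sets. The number of samples limits the precision.

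Members and lists were chosen with earlier results of these data known. Values in all arrays are given for the brightest, most sloped and most variable probe sets of each role class, and for the brightest or most sloped of a list. Bsg and the slopes of the type IV collagens were chosen after their values were seen. Marker lists leave out the members. Alternatives were other scalings, filters, floors, forms of the hour and variance priors, and each array left out in turn.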

Additional observations from a re-analysis of the deposited data

Results flagged for a closer look

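In the 4 control arrays, 2 of 35 tested members had an array whose gap to the nearest other exceeded Dixon's 95% critical share of the range on the log2 scale. Col1a1 103709_at read 66.7 at 4 h, against 361 to 484 in the other arrays, a gap of 0.852 of the range. Ptgds 92546_r_at read 13501 at 4 h, against 7608 to 8320.4, a gap of 0.844. Chance flags about 1 in 20 such groups, and 8.63% of all 7453 probe sets met the criterion against 5.71% of the members. The second Col1a1 probe set read 94.4 at 4 h and 89.1 to 108 elsewhere, and both other Ptgds probe sets were also highest at 4 h.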

How the results depend on the processing

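With no filter on dim probe sets, 94 members entered, and 1 positive and 5 negative slopes had an unadjusted p under 0.05 in limma. Members 2-fold higher and lower numbered 10 and 12 at 1 h and 6 and 6 at 2 h. At 4 h they numbered 13 and 10, and at 6 h 6 and 10. The 4 h array was highest for 29 of the 94 (30.9%), against 21.8% of all 12422 probe sets. With the filter at the 60th percentile, 21 members remained, and 1 positive slope had an unadjusted p under 0.05 in limma. Members 2-fold higher and lower numbered 0 and 2 at 1 h and 0 and 0 at 4 h, and 0 were higher at 6 h. The 4 h array was highest for 9 of the 21 (42.9%), against 19.3% of all probe sets kept. For the member slopes and 2-fold counts in this section, the share over all probe sets was not counted. The negative slopes at an unadjusted p under 0.05 numbered 1 with arrays scaled to the same median, with the log2 of the hour, with late against early arrays and with an untrended variance prior. Without suffixed probe sets they numbered 1, the positive ones 1, and 0 members were 2-fold higher or lower at 6 h. The lower count at 6 h was 0 with median scaling and with quantile normalization. The single probe set past the trend test over all genes (Ttr) was lost (0 calls) with no filter, with late against early arrays and with an untrended prior. Settings that keep fewer or more probe sets change these counts by construction, and for the others the cause was not tested.

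Leaving out each array in turn gave 1 to 2 negative and 2 to 3 positive slopes at an unadjusted p under 0.05 in limma, and 0 to 1 call over all genes. The 4 h array was highest for 16 members (45.7%) without the 1 h or the 2 h array, against 33.2% and 29.4% of all. Without the 6 h array the number was 15 (42.9%), against 27.6% of all. Members 2-fold higher numbered 1 to 3 at 1 h, 1 to 2 at 2 h, 0 to 3 at 4 h and 1 to 3 at 6 h, and lower 5 to 6 at 1 h, 0 at 2 h, 2 to 3 at 4 h and 0 to 1 at 6 h. Signs were followed only for the 5 largest slopes in each direction among the tested members. Without the 1 h array, 5 of these slopes changed sign. Over the arrays left out, those of Col1a1 ran from -0.991 to 0.029, Col7a1 from -0.13 to 0.52, Lamb1 162263_f_at from -0.321 to 0.031, Mmp16 from -0.077 to 0.348 and Pcolce from -0.008 to 0.742. The other 116 values, 1 for each followed probe set and setting, kept their sign. None of the followed slopes passed under any of these settings, and slopes of the remaining members were not followed. No paired analysis was possible because each hour has 1 array of the same group. All alternatives for the count highest at 4 h were chosen after seeing the data. Intensities near the floor limit what can be said of the 59 members under the filter.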
